A study of Mus musculus with 2 samples.

Results

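The 8 genes Ms4a4a, Ms4a4b, Ms4a4c, Ms4a6b, Ms4a6c, Ms4a6d, Ms4a7 and Ms4a14 were followed through the CD45+ cells of mouse hearts. They were taken by symbol from the 27809 genes of the count matrix, which held 17 genes named Ms4a. CD45 is the surface antigen common to leukocytes. The cells came from 8-week-old male mice on a C57BL/6 background, 1 week after a sham operation or after TAC, the narrowing of the transverse aorta that puts the left ventricle under pressure. The 5 groups were WT sham, CD3e-/- sham, WT TAC, CD3e-/- TAC, and WT TAC with intraperitoneal injections of an antibody to CD8. CD3e-/- mice lack mature T cells from birth, so that T cells were missing before as well as after surgery. Each group carried 1 hashtag, and all 5 were sequenced together as 1 TAS-Seq library, made with BD Rhapsody cartridges. Which hashtag belongs to which group was taken from the notes deposited with the matrix, and the number of hearts behind a hashtag is not given in the sources used here.

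Ms4a genes encode small proteins that cross the membrane several times and sit beside receptors at the cell surface or in endosomes. Ms4a1 encodes CD20 of B cells, and Ms4a2 encodes the beta chain of the high-affinity IgE receptor of mast cells and basophils. Ms4a4b is known from T and NK cells, where its product modulates T cell activation. Ms4a7 and Ms4a4a are macrophage genes, Ms4a4c and the Ms4a6 genes are used by monocytes and macrophages, and Ms4a4c is induced by type I interferon in several leukocytes.

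All 8 members lie in a stretch of 304 kb on chromosome 19 (chr19:11301249-11604804, GRCm38.p6). In ascending coordinates they are Ms4a14, Ms4a7, Ms4a4a, Ms4a4c, Ms4a4b, Ms4a6c, Ms4a6b and Ms4a6d, with Ms4a4d, which is not a member, before the last. The pairs Ms4a4b with Ms4a4c and Ms4a6b with Ms4a6c are next to each other on the chromosome, and the pairs differed in how alike their levels were. The 250 bases before the annotated start of these 4 genes are therefore shown, from RefSeq (GRCm38.p6), 5′ to 3′ on the plus strand. Capitals mark the longest run of identical bases within each pair, which is 20 bases for Ms4a4b with Ms4a4c and 48 bases for Ms4a6b with Ms4a6c. The window of Ms4a4b is chr19:11443308-11443557, that of Ms4a4c is chr19:11407411-11407660, which lies inside the annotated span of the gene, that of Ms4a6b is chr19:11518309-11518558, and that of Ms4a6c is chr19:11469118-11469367, the end of which also lies inside the annotated span that begins at 11469353.
Ms4a4b: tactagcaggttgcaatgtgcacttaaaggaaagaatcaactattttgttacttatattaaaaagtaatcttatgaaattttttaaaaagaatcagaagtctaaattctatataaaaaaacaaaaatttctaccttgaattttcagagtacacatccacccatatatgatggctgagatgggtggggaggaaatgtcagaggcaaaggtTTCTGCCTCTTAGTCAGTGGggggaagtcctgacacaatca
Ms4a4c: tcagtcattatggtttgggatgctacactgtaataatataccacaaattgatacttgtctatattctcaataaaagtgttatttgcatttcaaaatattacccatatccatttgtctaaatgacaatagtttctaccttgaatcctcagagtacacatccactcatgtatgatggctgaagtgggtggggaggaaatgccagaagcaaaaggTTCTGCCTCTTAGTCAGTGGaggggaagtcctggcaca
Ms4a6b: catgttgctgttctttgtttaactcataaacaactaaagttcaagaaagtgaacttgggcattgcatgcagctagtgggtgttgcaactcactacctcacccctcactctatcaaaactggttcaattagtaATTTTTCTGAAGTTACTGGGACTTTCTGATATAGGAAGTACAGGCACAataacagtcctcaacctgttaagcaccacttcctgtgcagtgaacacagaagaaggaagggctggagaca
Ms4a6c: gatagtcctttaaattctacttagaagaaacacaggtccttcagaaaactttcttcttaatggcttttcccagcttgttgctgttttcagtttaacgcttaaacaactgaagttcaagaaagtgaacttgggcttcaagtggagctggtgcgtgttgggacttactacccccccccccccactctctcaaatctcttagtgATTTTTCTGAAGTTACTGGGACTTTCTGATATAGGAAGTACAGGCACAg

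Over the part of the RefSeq windows that lies before the annotated start, Ms4a4b and Ms4a4c were identical at 182 of 259 aligned positions, or 70.3%. Ms4a6b and Ms4a6c were identical at 51.1% in the same end-to-end alignment, in which the shared run lies at a different distance from the start of each gene. The other 19 pairs of members ranged from 46.4% to 51.5%, with longest runs of 7 to 9 bases. The full windows, which also hold the first bases after the start, were searched for 3 sets of letters and were found for 7 of the 8 members. The letters GAAANNGAA, as in interferon-stimulated response elements, were found in 4 of the 8 member windows and in 8.56% of all 32851 windows. The matches lay in both windows of Ms4a7 and in those of Ms4a6c and Ms4a6b. The match GAAAGTGAA is the same in Ms4a6b and Ms4a6c, and it stands in lower case in their lines above. The letters TGANTCA of AP-1 sites were found in 3 of the 8 member windows and in 7.81% of all windows. The 3 were windows of Ms4a14, Ms4a7 and Ms4a4b. GAGGAAGT, a PU.1 type of site, was found in 0 of the 8 member windows and in 3.20% of all windows. Both strands were searched, none of the 3 sets of letters contains another, and a match is no bound site.

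Cells were put into classes by limits on single-cell CPM, the reads of a gene per 1000000 reads of the cell, of 8 gate genes, with no Ms4a gene among them. Of 5315 cells with a hashtag, 5263 were kept. Cells at or above 200 CPM of Csf1r and 2000 CPM of Lyz2 and below 50 CPM of Cd3g formed the myeloid gate, which held 563, 485, 1090, 671 and 605 cells in WT sham, CD3e-/- sham, WT TAC, CD3e-/- TAC and the group labelled CD8-depleted TAC. This order of the 5 groups holds wherever 5 values follow. Inside the gate the first match was taken of Ly6c2 at 500 CPM (25, 34, 158, 169 and 141 cells), Lyve1 at 100 CPM (75, 31, 52, 17 and 32), Gpnmb at 100 CPM (13, 6, 70, 33 and 29), Cd209a at 200 CPM (22, 27, 35, 5 and 16) and Ccr2 at 1000 CPM (140, 171, 425, 232 and 189), and the rest was called the Ccr2-low class (288, 216, 350, 215 and 198). The T class held 46, 3, 35, 0 and 28 cells at or above the Cd3g limit and below that of Csf1r. B and NK classes were taken in the same way from Cd79a and Ncr1, and an outer Cd209a class of 69, 69, 86, 32 and 37 cells held those at or above the Cd209a limit outside the myeloid gate. A level is the sum of a gene's reads in a class per 1000000 reads of that class. Levels from fewer than 20 cells are not used unless their cell number is given. The weighting by the class make-up of WT sham, described below, is an exception and uses every myeloid class.

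The classes are called by their gate genes, and the marker lists of 2 of them are given. The Lyve1 class had 3439 to 4628 CPM of 5 resident macrophage genes such as Folr2 and Cd163, against 11.4 to 62.3 CPM in the Ly6c2 class. The Gpnmb class had 8978 to 10485 CPM of 5 lipid-associated macrophage genes such as Trem2 and Spp1, against 1686 to 2861 CPM in the Ly6c2 class. Ccr2 is a broad limit, and 404 of the 3414 cells of the myeloid gate lay within 1.5 times of it in either direction, against 151 for Ly6c2, 13 for Lyve1 and 14 for Gpnmb.

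Median depth was 75442 to 117788 reads per cell, and 0 barcode numbers occurred more than once. Ptprc, which encodes CD45, was read in 96.6% to 98.5% of the cells of each group. Cd3e had 17.8, 3.73, 10.8, 5.64 and 13.6 CPM over all kept cells, so that reads of the targeted gene persisted in the CD3e-/- groups, while Cd3g had 45.6, 0.555, 17.5, 0.0661 and 22.5 CPM. Cells with a read of Cd8a or Cd8b1 made up 1.01% (exact 95% binomial interval 0.461 to 1.90%) of the antibody group and 1.18% (0.710 to 1.83%) of WT TAC. In the T class they were 3 of 28 and 8 of 35 cells. The intervals over all cells overlapped, and the group is named here by its label. Fibroblast genes summed to 533, 492, 78.6, 143 and 227 CPM over all kept cells, and interferon response genes to 307, 346, 1362, 1623 and 2139 CPM. With 1 hashtag per group, differences between groups have no replicate check and were not tested. All intervals cover counting error only, not the spread between hearts. The values are reads, not molecules, so intervals computed from reads are narrower than the counting error of molecules.

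The members differed in the class in which they were highest. Among the 6 myeloid classes, 6 of the 8 members (Ms4a4a, Ms4a4b, Ms4a4c, Ms4a6b, Ms4a6c and Ms4a6d) were highest in the Ly6c2 class in 5 of 5 groups. Ms4a7 was highest in the Gpnmb class in the 3 TAC groups, in which that class had 20 or more cells. Ms4a14 was highest in the Gpnmb class in 2 of these groups and in the Ccr2-low class in WT TAC. Ms4a4b alone was higher in the T class than in every myeloid class. The ranges over the groups did not overlap with the next class for the Ly6c2 level of Ms4a4c, Ms4a6b and Ms4a6c, the Gpnmb level of Ms4a7 and the T level of Ms4a4b. For Ms4a4a, Ms4a6d and Ms4a14 the range of the leading class overlapped with that of the class below it.

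**Figure D1:**
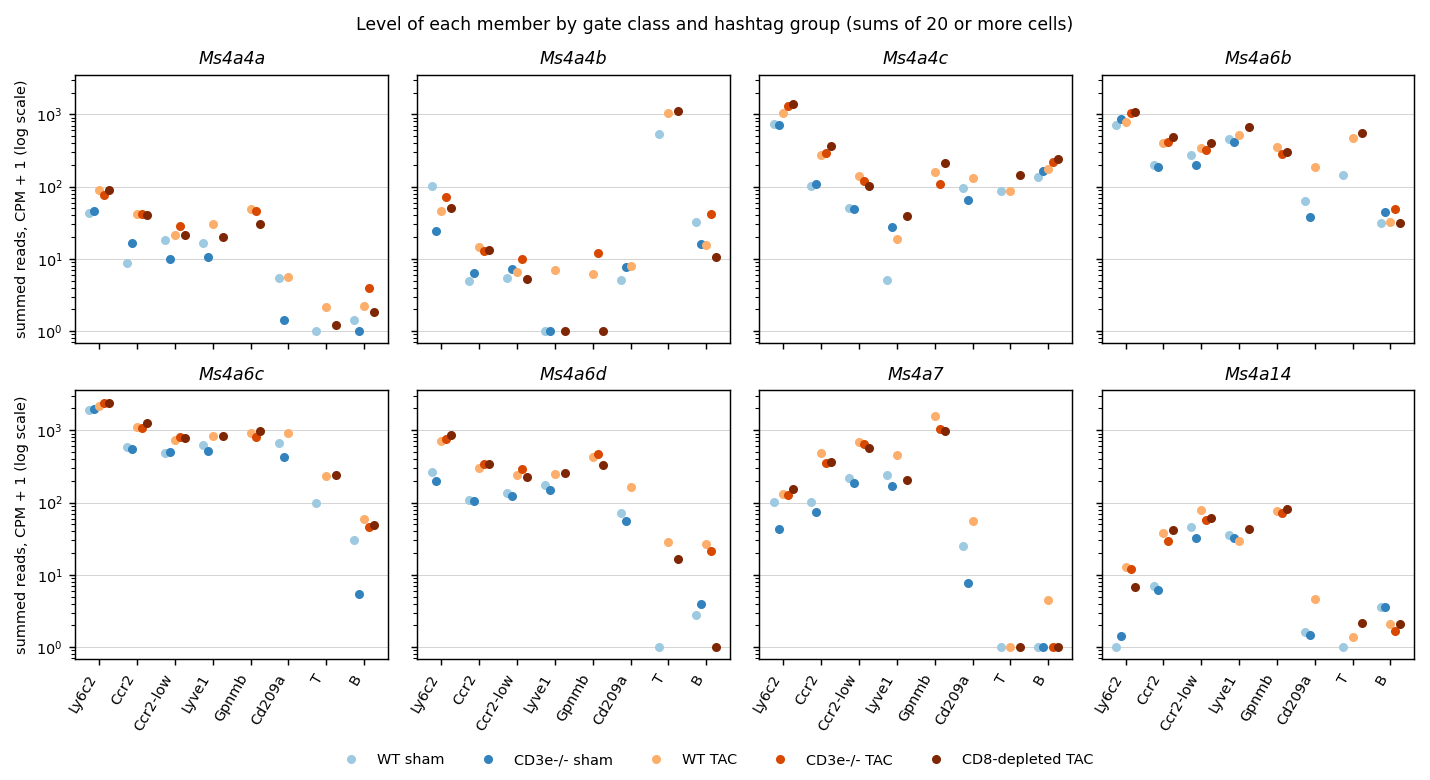
Level of each member (summed reads, CPM + 1, log scale) in 8 gate classes, with 1 point per hashtag group of 20 or more cells, coloured by group. Ms4a4c and Ms4a6c fall from the Ly6c2 class to the Lyve1 class, Ms4a7 rises from the Ly6c2 class to the Gpnmb class, and Ms4a4b stands near 1000 CPM in the T class of the TAC groups.

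Ms4a6c, one of the Ms4a6 genes of monocytes and macrophages, had 1893, 1975, 2139.8, 2367 and 2405 CPM in the Ly6c2 class. Its 4 values in the Lyve1 class were 622, 516, 825 and 825 CPM (WT sham, CD3e-/- sham, WT TAC and CD8-depleted TAC). The ranges did not overlap, and the median Ly6c2 cell of WT TAC held 2047 CPM, with 1 cell holding 3.23% of the reads. After each cell had been thinned to 34832 reads, at least 94.1% of the Ly6c2 cells of each group had a read of Ms4a6c. In the B class, taken as background as a class of another lineage, the share was 1.25 to 6.56%. Before thinning the shares were at least 94.1% and 0.870 to 4.55%, at median depths of 97446 to 152585 and 42672 to 56470 reads per cell, and thinning left out 0 to 4 Ly6c2 cells and 14 to 35 B cells per group as too shallow.

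Ms4a4c, the interferon-inducible neighbour of Ms4a4b, had the largest difference between these 2 classes. Its level in the Ly6c2 class was 731, 712, 1058, 1305 and 1391 CPM, and in the Lyve1 class it was 4.05, 26.4, 17.9 and 38.5 CPM in the 4 groups with 20 or more cells. Thinned Ly6c2 cells had a read in 80.0 to 96.4% and thinned Lyve1 cells in 2.82 to 20.7%. Ms4a4c was not limited to myeloid cells, since the B class had 133 to 243 CPM with a read in 31.1 to 45.3% of thinned cells. In the Gpnmb class it had 157, 109 and 209 CPM in the 3 TAC groups, but 1 cell held 78.2% of these reads in CD3e-/- TAC, and the median cell had none in any of them.

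Ms4a6b, the neighbour of Ms4a6c, was high in the Ly6c2 class at 702, 849, 788, 1029 and 1089 CPM and lower in the Lyve1 class, at 453, 409, 514 and 658 CPM. In the Gpnmb class it had 356, 280.4 and 301 CPM, below each of its Lyve1 values. The T class held 146, 472 and 547 CPM of Ms4a6b in WT sham, WT TAC and CD8-depleted TAC. Ms4a6c had 97.4, 231 and 240.3 CPM in the same T cells, and its median T cell had none, whereas the median T cell had 504 CPM of Ms4a6b in WT TAC and 511 CPM in CD8-depleted TAC.

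Ms4a6d, a macrophage gene of the same subgroup, was lower in the Ly6c2 class of sham hearts than of TAC hearts. It had 261 and 199.7 CPM in the sham groups and 699, 756 and 871 CPM in the TAC groups. In the Gpnmb class of the TAC groups it had 427, 467 and 327 CPM. Ms4a4a, a macrophage surface gene, reached at most 89.5 CPM in any class of 20 or more cells. Its Ly6c2 values were 42.2, 45.6, 87.9, 75.7 and 89.5 CPM, the median Ly6c2 cell of both sham groups had no read, and 1 cell held 33.1% of the reads in WT sham.

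Ms4a7, a gene of macrophages, had 1570.2, 1023 and 981 CPM in the Gpnmb class of WT TAC, CD3e-/- TAC and CD8-depleted TAC. In the Ly6c2 class it had 102, 41.4, 129.5, 127 and 152 CPM, and the median Ly6c2 cell of each group had none. In WT sham 1 cell held 96.2% and in CD3e-/- sham 1 cell held 57.0% of these reads. The Ccr2-low class stood between, at 220.0, 183, 694, 651 and 571 CPM. It had 0 reads in the T class of all 3 groups with 20 or more T cells, where 3 reads would be 0.578 to 0.703 CPM, and the B class had 0 to 3.52 CPM. The Lyve1 class had 238, 170.0, 447 and 203 CPM, below each Gpnmb value.

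Ms4a14 lies next to Ms4a7 and followed it at low levels. It had 76.3, 70.9 and 80.0 CPM in the Gpnmb class of the TAC groups and 45.3, 31.0, 78.9, 56.2 and 60.6 CPM in the Ccr2-low class. The Ly6c2 class had 0, 0.445, 11.9, 11.1 and 5.87 CPM, with 0 reads in WT sham, where 3 reads would be 0.974 CPM. The Ly6c2 values lay below all Gpnmb and all Ccr2-low values, but the Gpnmb value of CD8-depleted TAC rested to 44.5% on 1 cell.

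Ms4a4b, the lymphocyte member, had 531, 1028 and 1096 CPM in the T class of WT sham, WT TAC and CD8-depleted TAC. The NK class, with 10, 7, 8, 12 and 3 cells, had 1039, 1041, 1084, 1759 and 1789 CPM. The levels of these T and NK cells lay above every myeloid value. The Ly6c2 class had 99.6, 23.1, 45.1, 71.1 and 49.7 CPM, and the Lyve1 class had 0 reads in 3 of its 4 groups with 20 or more cells, where 3 reads would be 0.450 to 0.955 CPM. T and NK cells are few, yet the T class held 48.1, 49.2 and 58.1% of all Ms4a4b reads of those 3 groups and 0% in both CD3e-/- groups. The NK class held 16.1, 51.4, 8.92, 33.4 and 7.41% of the reads.

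**Figure D2:**
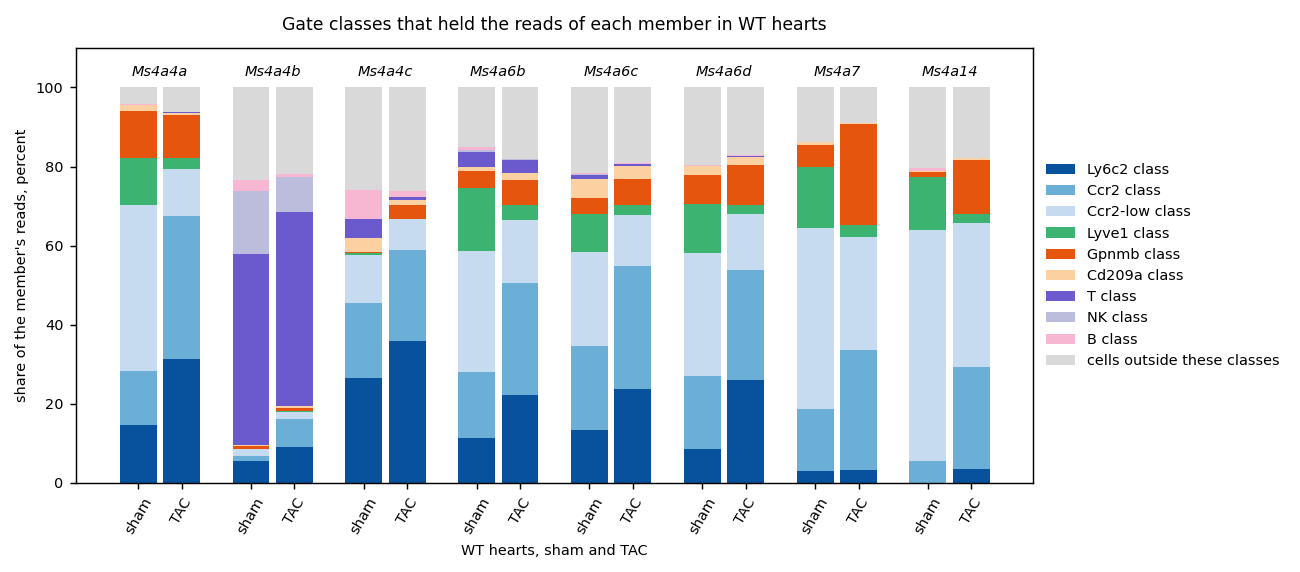
Share of each member's reads (percent, stacked to 100) by the gate class of the cell they came from, in WT sham and WT TAC. The T class holds 48.1% and 49.2% of the Ms4a4b reads, and the share of Ms4a7 reads from the Gpnmb class is 5.58% in sham and 25.4% in TAC.

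Differences between classes were tested with edgeR's quasi-likelihood test on 38 sums of reads, 1 per class and hashtag group (the 6 myeloid classes, the T and B classes and the outer Cd209a class where they had 20 or more cells), with the group in the model and Benjamini-Hochberg adjustment over 17089 genes. The 5 groups differ in condition and come from 1 library, so the p-values measure only the spread among these sums. Of the 8 members, 5 were higher in the Ly6c2 class than in the Lyve1 class at an adjusted p under 0.05, and 1 was lower. Of all genes, 11.9% were higher and 7.93% were lower. Ms4a4c differed most, with a log2 fold change of 5.69 ± 0.38 (SE, adjusted p = 8.3e-12), and Ms4a4b followed at 5.25 ± 0.78 (adjusted p = 1.0e-05). Each SE here was derived from the test, as the size of the log2 fold change over the square root of its F statistic. For Ms4a4b the Lyve1 reads came from WT TAC alone, so its fitted fold depends on the prior count. With 1 hashtag group left out, its log2 fold change ran from 4.26 to 12.3. Ms4a4a was higher by 1.92 ± 0.50 (adjusted p = 0.0056) and Ms4a6c by 1.70 ± 0.27 (adjusted p = 2.5e-05). Ms4a6b was higher by 0.84 ± 0.30 at an adjusted p of 0.046, which passed in only 2 of 15 alternatives (0.020 to 0.30). Ms4a14 was lower, at -2.92 ± 0.67 (adjusted p = 0.0020). Ms4a6d at 1.09 ± 0.50 (adjusted p = 0.13) and Ms4a7 at -1.21 ± 0.59 (adjusted p = 0.16) did not pass. Without CD8-depleted TAC, 3 members passed as higher, and with sums of 50 or more cells 2 did.

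Fewer members passed the test between the 2 macrophage classes. Fewer of all genes passed there too, with 1104 against 3397 between the Ly6c2 and Lyve1 classes. Between the Gpnmb and Lyve1 classes 1 member was higher, against 4.46% of all genes, and 0 were lower, against 2.0%. The member was Ms4a4c, at 2.75 ± 0.36 (adjusted p = 7.4e-06 by edgeR), and 1 cell of CD3e-/- TAC held most of the Gpnmb reads of its group, as given above. The count of lower members was 1 at an unadjusted p under 0.05 and 1 by DESeq2. Ms4a7 had a log2 fold change of 1.84 ± 0.70 (adjusted p = 0.12), which did not pass although the ranges of 981 to 1570 and 170 to 447 CPM are apart. This contrast set 3 Gpnmb sums, all from TAC groups, against 4 Lyve1 sums, and only 2 groups had both classes. Without WT TAC, 2 members were higher.

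Against the Gpnmb class, the Ly6c2 class was higher in 4 members and lower in 2, against 4.76% and 4.05% of all genes. The higher members were Ms4a4b at 3.69 ± 0.76, Ms4a4c at 2.95 ± 0.37, Ms4a6b at 1.76 ± 0.35 and Ms4a6c at 1.49 ± 0.30, with adjusted p of 0.0016, 2.1e-06, 0.00094 and 0.0013 by edgeR. Ms4a7 was lower, at -3.05 ± 0.64 (adjusted p = 0.0021), and so was Ms4a14, at -3.60 ± 0.67 (adjusted p = 0.00048). With sums of 50 or more cells 1 member was higher and 1 lower, namely Ms4a4c and Ms4a7, the members that passed in 15 of 15 alternatives. Ms4a4b, Ms4a6b and Ms4a14 passed in 14 and Ms4a6c in 13. Between the Ccr2 and Ccr2-low classes, only Ms4a4c passed, at 1.32 ± 0.28 (adjusted p = 0.0096), as 1 of 8 members against 1.3% of all genes. It passed in 8 of 15 alternatives, and not without either CD3e-/- group, WT TAC or CD8-depleted TAC, although it was higher in the Ccr2 class in 5 of 5 groups. None was lower by edgeR, against 0.357% of all genes, with 1 member at an unadjusted p under 0.05 and 0 by DESeq2. The medians of the 8 members in these 4 contrasts were 1.40, 0.72, 1.33 and 0.32 on the log2 scale, and those of all genes were 0.09, 0.00, 0.08 and -0.02.

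**Figure D3:**
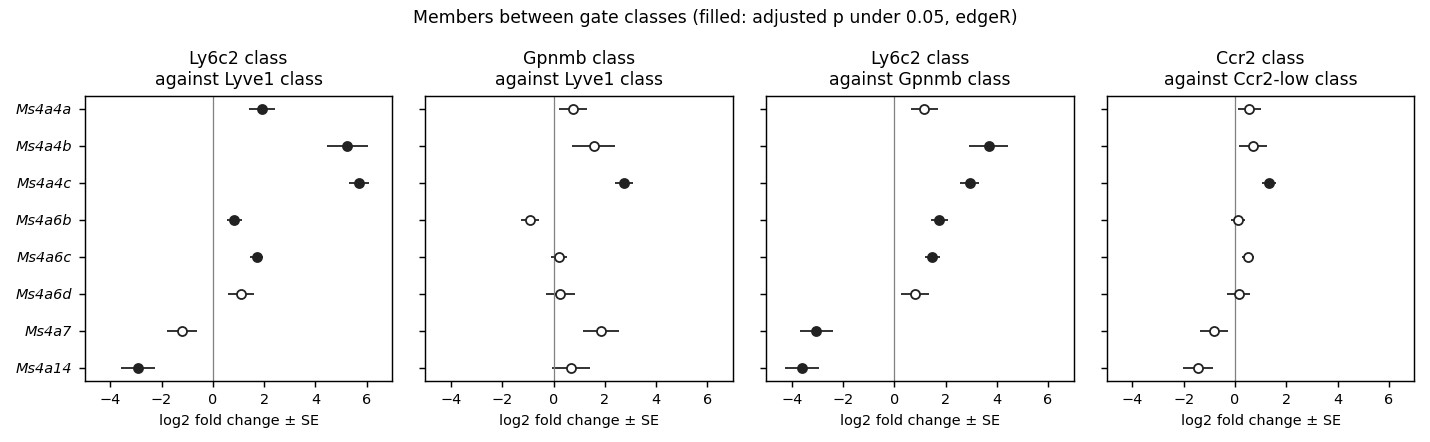
Log2 fold change ± SE of each member in 4 contrasts of gate classes from edgeR, with filled points at an adjusted p under 0.05. The SE is derived from the F statistic of the test. In the contrast of the Ly6c2 and Gpnmb classes, Ms4a4b, Ms4a4c, Ms4a6b and Ms4a6c lie to the right of 0 and Ms4a7 and Ms4a14 to the left.

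All 8 members were higher after TAC than after sham surgery in the myeloid gate, in both genotypes, with unequal steps. Called at a 2-fold difference with 10 CPM added to both groups, 3 of 8 members were higher in WT TAC than in WT sham and 0 were lower. The myeloid gate had 3710 genes at 50 CPM or more in 1 or both groups, of which 1.46% were higher and 0.997% lower. Ms4a4a, Ms4a4b and Ms4a14 do not reach 50 CPM in these groups. The median log2 difference of the members was 0.91, and that of the 3710 genes 0.03. In CD3e-/- mice 7 of 8 members were higher in TAC than in sham and 0 were lower, against 2.36% and 1.45% of 3732 genes. The medians were 1.14 and 0.06. Of the 7, Ms4a4a and Ms4a4b stay under the 50 CPM asked of the 3732 genes, at 45.3 and 26.2 CPM in CD3e-/- TAC. The 2 comparisons share no group.

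Ms4a7 had 168, 115, 564, 416 and 389 CPM in the myeloid gate, with an exact 95% Poisson interval of 165 to 172 in WT sham and 560.5 to 568 in WT TAC. Its log2 difference of TAC over sham was 1.69 in WT and 1.77 in CD3e-/- mice. The 3 TAC values lay above both sham values, and WT TAC was the highest. Ms4a4c had 99.9, 125, 333, 482 and 518 CPM, with log2 differences of 1.64 and 1.87, and CD8-depleted TAC was the highest. Ms4a6d had 141, 118, 351, 451 and 429 CPM, with differences of 1.26 and 1.85.

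Ms4a6c had 631, 623, 1135, 1296 and 1365 CPM and differences of 0.84 and 1.04, on either side of the 2-fold limit. Ms4a6b had 285, 242, 436, 536 and 603 CPM and differences of 0.59 and 1.12. The low members Ms4a4a, Ms4a4b and Ms4a14 differed by 0.98, 0.32 and 0.67 in WT and by 1.16, 1.11 and 0.75 in CD3e-/- mice, all on the log2 scale with 10 CPM added. In the same cells the interferon list had 324, 393, 1367, 1679 and 2170.3 CPM and the fibroblast list 0.794, 53.1, 2.53, 1.91 and 0.934 CPM. The part of either in the differences was not tested.

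**Figure D4:**
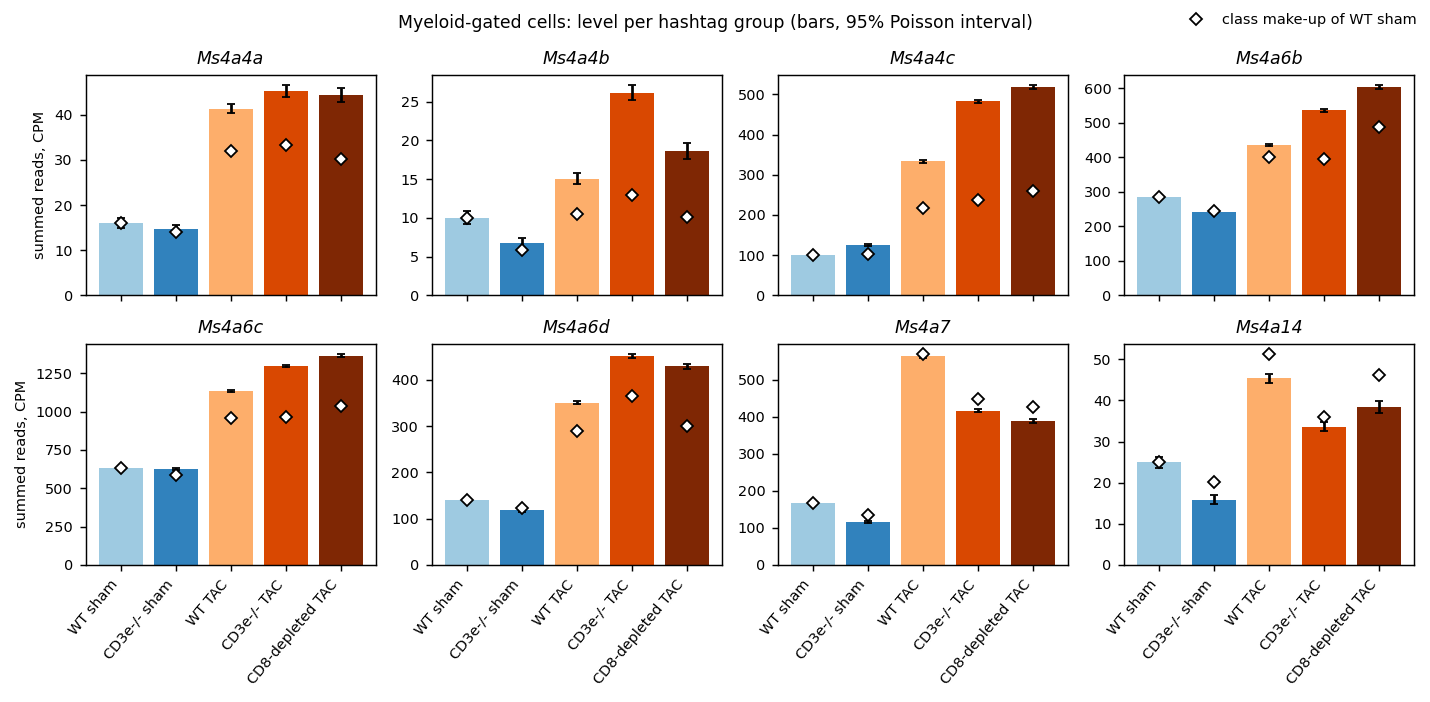
Level of each member in the myeloid gate (summed reads, CPM, bars from 0) in the 5 hashtag groups. The exact 95% Poisson intervals are for the counting error of reads, not molecules. The diamonds give the level with all myeloid classes, also those of few cells, weighted by their reads in WT sham. In the 3 TAC groups the diamond stands below the bar for Ms4a4c and at or above it for Ms4a7 and Ms4a14.

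The make-up of the gate differed along with the members. The Ly6c2 class was 4.44% of the myeloid gate in WT sham and 14.5% in WT TAC, 7.01% in CD3e-/- sham and 25.2% in CD3e-/- TAC. With the classes of every group weighted as in WT sham, an alternative added after seeing the data, the difference of Ms4a4c was 1.06 in WT, against 1.64 as measured, and 1.14 in CD3e-/- mice, against 1.87. That of Ms4a6d was 0.99, against 1.26, and 1.51, against 1.85. Ms4a7 differed little, with 1.70 in WT and 1.66 in CD3e-/- mice. Of the 7 members higher in CD3e-/- TAC, 3 kept a 2-fold difference under this weighting, namely Ms4a4c, Ms4a6d and Ms4a7. The weighting used every myeloid class, so the weighted values rest partly on classes of few cells. The Gpnmb class had 13 cells in WT sham and 6 in CD3e-/- sham. In CD3e-/- TAC the Lyve1 class had 17 cells and the Cd209a class 5. The Cd209a class of CD8-depleted TAC had 16 cells.

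Most members were also higher after TAC inside single classes. In WT hearts 38 of 40 values, for 8 members in the 5 classes with 20 or more cells in both groups, lay above 0, with a median log2 difference of 0.68. In CD3e-/- hearts 24 of 24 values in 3 classes lay above 0, with a median of 1.00. No such count was made over all genes inside the classes. Some of these values come from very low levels. Examples in WT are Ms4a14 in the Cd209a class (3.66 against 0.634 CPM) and Ms4a4b in the Lyve1 class (5.91 against 0 CPM). Ms4a7 had the highest value in the Ccr2 class, at 2.13 in WT and 2.09 in CD3e-/- mice, where its levels were 102, 73.4, 478, 346 and 367 CPM. In the Ccr2-low class it differed by 1.61 and 1.78. Ms4a6d led in the Ly6c2 class, at 1.39 and 1.87, while Ms4a6c, which was already high there in sham hearts, differed by 0.18 and 0.26. The values below 0 were Ms4a4b in the Ly6c2 class of WT, at -0.99, and Ms4a14 in the Lyve1 class of WT, at -0.21.

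**Figure D5:**
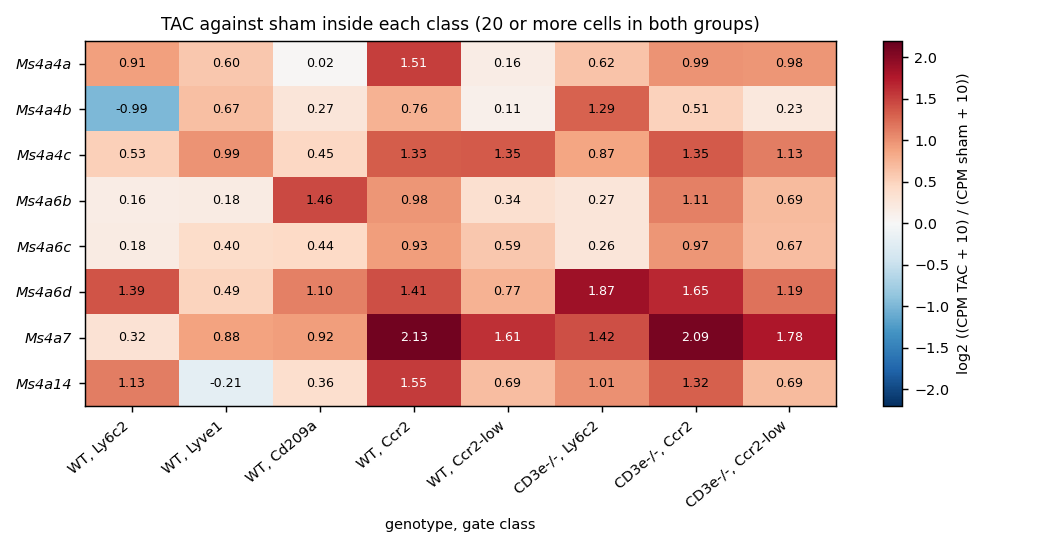
Log2 difference of TAC over sham, with 10 CPM added, of each member (rows) in each genotype and gate class with 20 or more cells in both groups (columns), 1 hashtag group against 1. Red is higher and blue lower after TAC, and the values range from -0.99 for Ms4a4b to 2.13 for Ms4a7.

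The classes from which the reads came differed with TAC as well. The Gpnmb class gave 5.58, 5.94, 25.4, 18.6 and 15.7% of all Ms4a7 reads, and the Ccr2-low class gave 45.7, 49.6, 28.5, 41.8 and 35.2%. For Ms4a4c the Ly6c2 class gave 26.4, 30.0, 35.9, 60.1 and 52.4%. The share of Ly6c2 cells in the Ms4a4c reads was thus higher in each TAC group than in either sham group.

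Between the genotypes, and with the CD8 antibody, no member differed 2-fold in the myeloid gate. WT TAC is the other side of both contrasts within TAC, and WT sham and both CD3e-/- groups also stood in the contrasts of TAC and sham. In the myeloid gate 0 of 8 members differed 2-fold between CD3e-/- sham and WT sham (0.248% of 3629 genes higher and 0.22% lower), between CD3e-/- TAC and WT TAC (0.464% and 0.273% of 3664 genes), or between CD8-depleted TAC and WT TAC (0.137% and 0.165% of 3646 genes). Ms4a7 had log2 differences of -0.51, -0.43 and -0.52 in the 3 contrasts. Ms4a4c had 0.29, 0.52 and 0.62. With the classes weighted as in WT sham, Ms4a7 had -0.30, -0.34 and -0.40, and Ms4a4c had 0.03, 0.12 and 0.23. Over all kept cells Ms4a4b was lower in CD3e-/- sham than in WT sham, with 14.9 against 57.4 CPM. In that group the T class had 3 cells.

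In the Gpnmb class, Ms4a7 was lower in CD3e-/- TAC and in CD8-depleted TAC than in WT TAC, by log2 differences of -0.61 and -0.67. The class had 70 cells in WT TAC, 33 in CD3e-/- TAC and 29 in CD8-depleted TAC. The share of thinned Gpnmb cells with a read of Ms4a7 was highest in CD3e-/- TAC, at 96.9%, and lowest in CD8-depleted TAC, at 75.9%. In the Lyve1 class of CD8-depleted TAC, Ms4a7 was lower than in WT TAC by more than 2-fold, with 203 against 447 CPM. The log2 difference was -1.10, from 32 and 52 cells. The share of thinned Lyve1 cells with a read of Ms4a7 was 35.7 to 75.9% over the 4 groups, and it was highest in CD8-depleted TAC. In the Ly6c2 class Ms4a7 differed from WT TAC by -0.02 and 0.21. Ms4a4c was higher in the Ly6c2 class of both groups, by 0.30 and 0.39, but lower in their Ccr2-low class, at -0.25 and -0.45. In the Gpnmb class it stood at -0.48 in CD3e-/- TAC and 0.39 in CD8-depleted TAC. The interferon list had 1548, 1606, 4038, 4028 and 5952 CPM in the Ly6c2 class, so that the group with the highest Ms4a4c also had the highest interferon level. The part of interferon in this was not tested.

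Between the sham groups, 4 of 40 values inside single classes differed 2-fold, from 22 to 75 cells each. The share of all genes that did so inside these classes was not counted. In the Ly6c2 class, with 34 cells in CD3e-/- sham and 25 in WT sham, Ms4a4b had a log2 difference of -1.73 and Ms4a7 one of -1.12, and 1 cell held most of the Ms4a7 reads of each group, as given above. In the Lyve1 class Ms4a4c was higher in CD3e-/- sham, with 26.4 against 4.05 CPM and a difference of 1.37. In the Cd209a class Ms4a7 had 6.73 against 23.8 CPM, a difference of -1.01.

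Among single Ly6c2 cells, thinned to 34832 reads, Spearman's rho with the interferon list was 0.58 to 0.72 for Ms4a4c over the 5 groups. It was 0.29 to 0.53 for Ms4a6b, 0.08 to 0.56 for Ms4a6d and -0.16 to 0.09 for Ms4a7. Across all thinned myeloid cells, Ms4a4c and Ms4a6c had a median rho of 0.58 (0.43 to 0.64) over the groups, Ms4a6b and Ms4a6c 0.51 (0.31 to 0.60), Ms4a7 and Ms4a14 0.41 (0.23 to 0.45), and Ms4a4c and Ms4a7 -0.20 (-0.39 to -0.10). These are descriptions over cells of 1 library.

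Over the 38 sums of class and group, Pearson's r of the log levels was 0.913 for Ms4a7 with Ms4a14 and 0.892 for Ms4a6c with Ms4a6d. It was 0.295 for the neighbours Ms4a4b and Ms4a4c and 0.752 for the neighbours Ms4a6b and Ms4a6c, whose windows are shown above. Of 7226 genes, those most like Ms4a7 were Trem2 (0.980), Apoe (0.971) and Itgb5 (0.956). Trem2 is a lipid receptor of macrophages and Apoe an apolipoprotein. Those most like Ms4a14 were Olfml3 (0.952), Mertk (0.938) and Itga6 (0.923). Mertk is a receptor for dying cells.

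Among the members highest in the Ly6c2 class, Ms4a6c was most like Ifitm3 (0.969), Tyrobp (0.947) and Itgam (0.937). Ms4a6d was most like Fcgr1 (0.963), the high-affinity IgG receptor, and then Oas1g (0.943) and Ifi204 (0.943), which are interferon-induced genes. Ms4a6b was most like Rtp4 (0.938), Rhog (0.880) and Fyb (0.857), and Ms4a4c, with a lower r, 1600014C10Rik (0.868), Slc2a1 (0.856) and Ifi209 (0.826). Ms4a4a was most like Cfb (0.927), Csf3r (0.921) and Gm20547 (0.902). The lymphocyte member Ms4a4b was most like Cd27 (0.904), a costimulatory receptor of T and NK cells, Samd3 (0.899) and Ctsw (0.895). The points of these correlations share 1 library and 1 set of gates, and they carry no p.

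Of 11 related genes, namely the other Ms4a genes of the matrix and Tmem176a and Tmem176b, 6 had enough reads for the class fit and 0 passed in any of the 4 contrasts by edgeR. By DESeq2, 1 was higher and 1 lower in the Ly6c2 class than in the Lyve1 class, 1 was lower in the Gpnmb class than in the Lyve1 class, and 0 passed in the others. At an unadjusted p under 0.05, 1 was higher and 1 lower in the Ly6c2 class than in the Lyve1 class, 3 were lower in the Gpnmb than in the Lyve1 class, 1 was lower in the Ccr2 than in the Ccr2-low class, and 0 differed between the Ly6c2 and Gpnmb classes. Ms4a1, the CD20 gene, had 1428 to 1974 CPM in the B class and 0 to 13.4 CPM in the Ly6c2 class. Ms4a8a had 35.7 to 84.5 CPM in the Ly6c2 class.

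The neighbours are not wholly separable by sequence. Stretches of 50 bases in the annotated transcripts were compared with the other annotated Ms4a genes. The shares found in another Ms4a gene were 6.78% for Ms4a4b, 5.32% for Ms4a4c, 3.14% for Ms4a6b, 6.07% for Ms4a6c and 2.92% for Ms4a6d. Within both pairs of neighbours, the gene sharing most was the other of the pair. For Ms4a6d it was Ms4a6b, with Ms4a4d between them on the chromosome. For Ms4a6c the share was 10.4% over the last 500 bases, and for the other 4 it was 0% there. Ms4a7 and Ms4a14 share 0%, and no transcript of Ms4a4a was used. How the counting treated reads that fit more than 1 gene is not given in the sources used here, so the levels within the pairs Ms4a4b with Ms4a4c and Ms4a6b with Ms4a6c are uncertain to that extent.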

How the data were processed

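CD45+ cells of mouse hearts were profiled in 1 pooled TAS-Seq library with 5 hashtags, 1 per group. The deposited matrix holds raw counts, namely the reads of each gene in each cell. Before deposit the authors chose cells by the inflection point of the barcode curve, corrected read errors by the distribution of reads and assigned the hashtags, and no normalization was applied. The submitters' processing notes name cutadapt 2.10, Bowtie2 2.4.2 and GRCm38. Counts are reads and not molecules, so amplification adds to the error. Of 5363 columns, 40 doublets called by the authors and 8 without a hashtag were left out, and no other doublet caller was run. The 5263 cells in which at least 500 genes were read and mitochondrial genes took no more than 0.4 of the reads were kept, and the gates were set on single-cell CPM (counts scaled to 1000000 per cell).

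Class sums of 20 or more cells were tested with edgeR 4.0.16 in R 4.3.3 (glmQLFit, glmQLFTest, TMM, filterByExpr, model of class and hashtag group, Benjamini-Hochberg adjustment). DESeq2 1.42.0 was an alternative. The fit was tested on simulated data with a fixed dispersion and no difference between hashtag groups. Changes were put only into genes with a mean of 50 CPM or more, so genes below that were not covered. Between hashtag groups, with 1 sample each, values are log2 ratios of CPM with 10 CPM added, called at 2-fold and not tested. Single-cell shares and correlations used cells thinned to 34832 reads, the 10th percentile of depth. Python 3.11.15 with numpy 2.4.6, scipy 1.17.1 and pandas 2.3.3 was used. Other alternatives changed the gate limits, the smallest class sum, the mitochondrial limit, the filter on low genes, the CPM added, the scaling, the deepest cells, the subtraction of the B class level and each hashtag group in turn. The named genes were the 8 members, and for each the 3 genes with the highest Pearson's r over the class sums. The members, gates and lists were chosen with earlier results of these data known. Transcripts for shared stretches came from GENCODE, which gave none for Ms4a4a.

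The second deposited sample and RNA velocity were not used here. Cells outside all gates, those in both the T and Csf1r gates, and class sums under 20 cells did not enter the fit. The monocyte marker list is not reported here.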

Additional observations from a re-analysis of the deposited data

Results flagged for a closer look

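Ms4a4b in the Ly6c2 class moved in opposite directions with TAC in the 2 genotypes. The log2 difference of TAC over sham was -0.99 in WT hearts, from 99.6 to 45.1 CPM, and 1.29 in CD3e-/- hearts, from 23.1 to 71.1 CPM. The difference between the genotypes was not tested, because each group has 1 sample. The WT sham value rests on 25 cells, of which 1 held 39.7% of the reads. The summed T cell list had 58.4 CPM and the NK cell list 160 CPM in the Ly6c2 class of WT sham, against 1.92 and 31.1 CPM in that of WT TAC. Over all groups, the 168 Ly6c2 cells with Ms4a4b reads had 14.0 CPM of the T cell list and 87.0 CPM of the NK cell list, against 5.23 and 28.2 CPM in the 359 cells without. Their median depth was 162400 reads against 112969. The part of T and NK transcripts or of depth in the difference was not tested.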

How the results depend on the processing

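Under the alternatives, 220 counts of members called stayed within 1.5 times of the reported count, 7 rose and 13 fell. Of the single member values, 663 stayed the same, in direction and call between classes or within the interval between hashtag groups. Another 259 moved by more than their interval, 6 rose past the limit, 29 fell short of it and 3 reversed. Between hashtag groups a change of sign counted as reversed only for differences of 2-fold or more. The 259 therefore hold smaller differences that changed sign. An example is Ms4a4b in WT TAC against WT sham, at 0.32 and as low as -0.12. For the Ly6c2 class against the Lyve1 class, the count of 5 higher members was 2 with sums of 50 or more cells and 3 to 4 with 1 hashtag group left out, and the count of lower members was 2 with the deepest 5% of cells left out. For the Gpnmb class against the Lyve1 class, 2 members were higher with the gate limits doubled and with the deepest 5% of cells left out, 1 to 2 with 1 hashtag group left out, and 1 was lower by DESeq2. For the Ly6c2 class against the Gpnmb class, sums of 50 or more cells left 1 higher and 1 lower member. For the Ccr2 class against the Ccr2-low class, the higher member was lost (0) with the gate limits doubled, with sums of 10 or more cells and with no hashtag group in the model, and the count was 0 to 1 with 1 group left out. Of the TAC contrasts, WT had 5 higher members over all kept cells, and CD3e-/- had 4 with 50 CPM added and 3 with the class make-up of WT sham, an alternative chosen after seeing the data. CD3e-/- sham had 1 lower member than WT sham over all kept cells, namely Ms4a4b. Counted as reversed were Ms4a4b (1.56 to -0.75, gate limits halved) and Ms4a6d (0.27 to -0.027, without WT TAC, and 0.50 without WT sham) between the Gpnmb and Lyve1 classes. The other was Ms4a6b (0.12 to -0.063, gate limits halved) between the Ccr2 and Ccr2-low classes. None of these 3 passed the test in the reported fit. Over all genes, DESeq2 called 1793 against 1104 by edgeR for the Gpnmb and Lyve1 classes, 2278 against 1506 for the Ly6c2 and Gpnmb classes and 430 against 284 for the Ccr2 and Ccr2-low classes. Sums of 50 or more cells gave 2219 against 3397 for the Ly6c2 and Lyve1 classes, 227 for the Gpnmb and Lyve1 classes and 531 for the Ly6c2 and Gpnmb classes, and doubled gate limits gave 31 for the Ccr2 and Ccr2-low classes. With 1 hashtag group left out, the counts of genes were 2394 to 2991, 380 to 965, 773 to 1405 and 30 to 154 for the Ly6c2 and Lyve1, Gpnmb and Lyve1, Ly6c2 and Gpnmb, and Ccr2 and Ccr2-low classes. Sums of 50 or more cells and groups left out rest on fewer sums, and beyond that the cause was not tested. The hashtag group in the model pairs the class sums of a group. Between hashtag groups no paired analysis was possible because each has 1 sample.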

Other observations

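Beyond the comparisons above, Ms4a4b was the member for which the choice of cells mattered most. Over all kept cells it had 57.4, 14.9, 51.9, 38.6 and 73.9 CPM in WT sham, CD3e-/- sham, WT TAC, CD3e-/- TAC and CD8-depleted TAC, while in the myeloid gate it had 6.76 CPM in CD3e-/- sham, 15.1 in WT TAC, 26.2 in CD3e-/- TAC and 18.6 in CD8-depleted TAC. CD3e-/- TAC was thus the highest group in the myeloid gate and next to the lowest over all kept cells. In that group no cell reached the Cd3g limit below that of Csf1r, and the NK class of 12 cells held 33.4% of the Ms4a4b reads.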
